A study of Mus musculus with 64 samples.

Results

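The genes described here are 43 genes that copy DNA or divide the cell, followed through the embryonic inner ear of CBA/J mice from E9 to E15. They were taken from a fixed list and split by role into 12 replication genes, 6 genes of G1/S control and 25 mitosis genes. A probe set annotated to the single gene was found for 41 of the 43, and all 41 passed the filter on low signal. Ccnb1 and Cdca8, both mitosis genes, were not measured here. The 41 stand among 9352 genes tested.

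RNA from microdissected inner ear epithelium, freed with dispase (a longer digestion from E11 on), was hybridised to 64 Affymetrix arrays in 32 groups of 2. The 2 arrays of a group hold pools from different litters, of 6 to 17 dissected tissues where 1 number was given, and all embryos were CBA/J with no treatment or transgene given in the labels. The 29 inner ear groups were the otic placode at E9, the otic vesicle at E9.5 and E10, the cochlea at 10 stages from E10.5 to E15, the vestibular organ between E10.5 and E12, and from E12.5 to E15 the utricle with its 3 ampullae and the saccule. The 3 non-inner ear groups were tissue lying next to the ear at E9, a pool of E9.5 to E10.5 and a pool of E11 to E15. The pools of surrounding tissue span several stages, and the vestibular organ was profiled as its parts after E12.

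A dividing cell first commits to S phase, in which the Mcm helicase opens DNA, ribonucleotide reductase (Rrm1 and Rrm2) supplies nucleotides and Pcna clamps the polymerase. It then builds the spindle, checks the attachment of chromosomes and splits, using genes whose transcripts normally peak after those of replication. In the cochlea, cells of the future organ of Corti are known to leave the cell cycle together, in a wave that precedes hair cell differentiation, and the inhibitor Cdkn1b marks them. In the vestibular organs, cells are known to leave over a longer time.

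The promoters of the role groups held different short sequence motifs. RefSeq windows on GRCm38.p6, from 250 bases before the annotated start to 50 after it, were found for 36 of the 43 genes. The E2F site (TTTCCCGC, TTTCGCGC, TTTGCCGC or TTTGGCGC, either strand) is bound by the E2F factors that open S phase. It was found in 4 of 11 replication windows (36.4%), 1 of 23 mitosis windows (4.3%) and 2.3% of all 32851 windows. The CHR element (TTTGAA, either strand) is bound by the DREAM and Myb complexes that time mitotic genes. It was found in 17 of 23 mitosis windows (73.9%), 1 of 11 replication windows (9.1%) and 17.9% of all windows. The CCAAT box, read on either strand, lay in 87.0% of mitosis windows and 81.8% of replication windows against 37.4% of all. Some E2F matches overlap each other on opposite strands. These are counts of letters, with no test, and a match does not show binding.

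Stretches before the start, chosen after the search to show both arrangements, are printed 5′ to 3′ in the direction of each gene, ending at the base before the start. Capitals mark E2F sites, CHR elements (TTTGAA or TTCAAA) and CCAAT boxes (CCAAT or ATTGG). The Mcm6 stretch is chr1:128359706-128359835 (minus strand), Mcm5 is chr8:75109339-75109508 (plus), Cdk1 is chr10:69352913-69353052 (minus), Ube2c is chr2:164769829-164769928 (plus) and Kif11 is chr19:37376282-37376381 (plus).
Mcm6: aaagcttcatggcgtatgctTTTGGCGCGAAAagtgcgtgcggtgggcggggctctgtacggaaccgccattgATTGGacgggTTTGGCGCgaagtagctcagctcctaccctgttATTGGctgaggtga
Mcm5: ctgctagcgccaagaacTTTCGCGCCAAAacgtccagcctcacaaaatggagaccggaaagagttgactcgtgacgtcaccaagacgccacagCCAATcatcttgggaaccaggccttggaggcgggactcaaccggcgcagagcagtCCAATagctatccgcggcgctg
Cdk1: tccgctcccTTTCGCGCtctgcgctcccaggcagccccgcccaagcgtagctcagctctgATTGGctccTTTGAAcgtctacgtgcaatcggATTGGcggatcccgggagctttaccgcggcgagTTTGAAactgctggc
Ube2c: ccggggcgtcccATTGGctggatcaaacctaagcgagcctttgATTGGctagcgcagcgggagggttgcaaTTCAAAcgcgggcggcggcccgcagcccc
Kif11: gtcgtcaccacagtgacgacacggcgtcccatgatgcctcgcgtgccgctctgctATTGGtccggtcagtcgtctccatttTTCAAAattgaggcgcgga
The Mcm6 stretch holds 3 E2F sites and no CHR element, and the Mcm5 stretch holds 2 overlapping E2F sites and no CHR element. The Ube2c and Kif11 stretches each hold 1 CHR element and no E2F site. Cdk1, the kinase that starts mitosis, was the mitosis gene with both, 1 E2F site farther from its start and 2 CHR elements nearer to it.

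Levels below are log2(signal + 16) after quantile normalization, and differences are on that same log2 scale, which understates changes of dim genes. A gene is called where its Benjamini-Hochberg adjusted p in limma is below 0.05 and its change is at least 1 log2. The change over a time course is the fitted slope multiplied by the days spanned. Replicate arrays correlated at 0.947 to 0.991 over all genes. Arrays of E11 had 9.81% to 12.0% of probe sets at the deposited floor of 10, against at most 8.63% elsewhere. Arrays of E14 also stood apart. In the utricle 407 genes were called lower from E13.5 to E14 and 399 higher from E14 to E14.5. Without the E14 arrays 31 genes of the set were called over the whole cochlear course, and 32, 17 and 22 over the later courses of cochlea, utricle and saccule described below. Without the E11 arrays 31 were called over the whole cochlear course. From E11 to E15 alone, within the longer digestion, 39 members had the same call as over the whole course and 2 more were called. With whole tissue on each array, fewer dividing cells and less transcript per cell cannot be told apart.

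From E10.5 to E15 transcripts of both replication and mitosis fell in the cochlea: 32 of 41 genes fell and none rose. Of all genes tested, 6.89% fell and 8.06% rose (644 and 754 genes, or 493 and 987 with the values as deposited). By role, 10 of 12 replication genes fell (median of all 12, -1.46), as did 3 of 6 G1/S genes (median -0.99) and 19 of 23 measured mitosis genes (median -1.70), beside a median of 0.06 over all genes. The largest fall among replication genes was that of Rrm2, the regulated subunit of ribonucleotide reductase, at -3.02 ± 0.27 (SE, adjusted p = 4.8e-12). Ube2c, which charges the anaphase-promoting complex with ubiquitin, fell by 2.91 ± 0.17 (SE, adjusted p = 7.2e-18), or 7.52-fold.

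**Figure D1:**
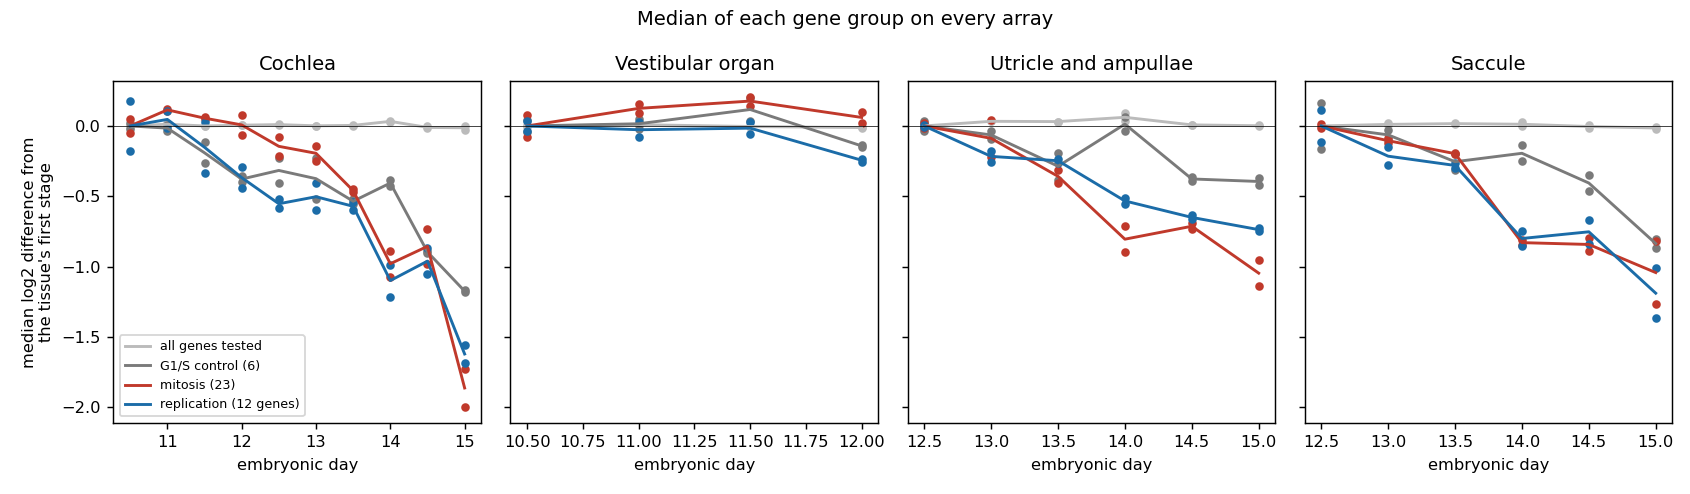
Median log2 difference of each role group from the mean of the first stage of that tissue, by embryonic day; points are single arrays, lines join stage means, dark grey is G1/S control, and light grey is the median of all genes tested. In the cochlea the replication median lies below the mitosis median from E11.5 to E14.5 and above it at E15.

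Among the other replication genes of the cochlea, Mcm4 fell by 2.38 and Mcm5 by 2.07, both subunits of the replicative helicase. Pcna, the sliding clamp, fell by 1.06. Rrm1, the large subunit of ribonucleotide reductase, was just short of the size rule at -0.98. Tyms, thymidylate synthase, was at 0.63 ± 0.21. Its probe set was among the dimmest of the members, at a mean of 6.55 and at or above the array median on only 26 of 64 arrays. Of the members that fell, Ccne1 (mean 6.57, 22 arrays), Ccne2 (6.38, 24 arrays) and the mitosis gene Kif20a (6.07, 14 arrays) were similarly dim.

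Within G1/S control the 2 cyclins of the D type, which pass growth signals to the cycle, had different courses. Ccnd2 read 12.54 and 12.45 in the cochlea at E10.5, 11.79 and 11.54 at E12.5, 10.78 and 10.74 at E14.5, and 9.88 and 10.30 at E15. It fell by 1.94 ± 0.10 (SE, adjusted p = 1.3e-19), and the 2 arrays of E15 were the lowest of the course. Ccnd1 read 11.61 and 11.53 at E10.5, 12.10 and 12.05 at E14, and 11.66 and 11.82 at E15, a fitted change of 0.35 that was not called. Cdc6, which loads the helicase, fell by 2.10, and Chek1, the kinase of the replication checkpoint, by 2.45. The kinases Cdk2 (0.41) and Cdk4 (-0.03) were not called. For Cdk4 the result rests on the brightest of 3 probe sets, since the other 2 changed by -1.07 and -1.38.

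After Ube2c, the largest falls among mitosis genes of the cochlea were those of Cenpa, Aurka, Kif11 and Bub1. Cenpa, the histone variant that marks the centromere, fell by 2.69 ± 0.13 (SE, adjusted p = 5.2e-20). Aurka, the kinase of the spindle poles, fell by 2.23, Kif11, the motor that pushes the poles apart, by 2.10, and Bub1, a kinase of the spindle checkpoint, by 2.06. Of the 23 measured, 4 were not called: Plk1 at -0.68, Cdca3 at -0.54, Cdc20 at -0.51 and Kif22 at -0.43. Cdc20 and Kif22 each have other probe sets that changed more, down to -1.69 for both.

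In the early cochlea 5 of 41 genes were called. E10.5 alone had the shorter digestion here, so a difference from E10.5 can be of stage or of digestion, and these cannot be told apart. From E10.5 to E12, 4 genes fell (3.15% of all genes fell): Rrm2 at -1.32, Ccne1, the cyclin that fires S phase, at -1.13, Mcm5 at -1.11 and the checkpoint kinase Bub1b at -1.32. Cdca3 rose by 1.10 (4.04% of all genes rose). By adjusted p alone in limma, 5 replication, 2 G1/S and 7 mitosis members passed, where 25.9% of all genes did. Mcm5 read 10.90 and 11.46 at E10.5, 11.08 and 10.75 at E11, 10.27 and 10.20 at E11.5, and 10.16 and 10.17 at E12, so that the 4 later arrays did not overlap the 4 earlier ones. It then stayed between 9.79 and 10.23 until E14. Without the second array of cochlea E10.5, 1 of these 5 calls was left, with Rrm2 at -0.99, Mcm5 at -0.86, Bub1b at -0.94 and Cdca3 at 0.72.

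Against E10.5, the median replication gene stood at -0.37 at E12 and -0.55 at E12.5, while the median mitosis gene stood at 0.01 and -0.14. Replication minus mitosis was -0.41 at E12.5, -0.11 at E14.5 and 0.24 at E15, where the medians were -1.62 and -1.86. These differences between medians are a description and were not tested. Their reference, E10.5, had the shorter digestion. Mki67, whose protein coats mitotic chromosomes, read 8.75 and 8.80 at E10.5, 9.49 and 9.38 at E12, and 7.00 and 7.63 at E15, so its highest stage came in the middle of the course. Of the 23 mitosis genes, 12 first dropped 1 log2 below E10.5, and stayed there, at E15 itself, as did 4 of the 12 replication genes. Rrm2 had reached that mark at E11.5, Mcm5 at E12, the mitosis gene Ube2c at E12.5 and Mcm4 at E13.5. At E14 it was reached by 3 of 12 replication genes (Mcm3, Mcm7 and Ccne1). At that stage 5 of 23 mitosis genes also reached it (Cenpa, Bub1, Aurka, Aurkb and Mad2l1). The mitosis gene Bub1b reached it at E14.5, and 2 replication and 4 mitosis genes never did.

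**Figure D2:**
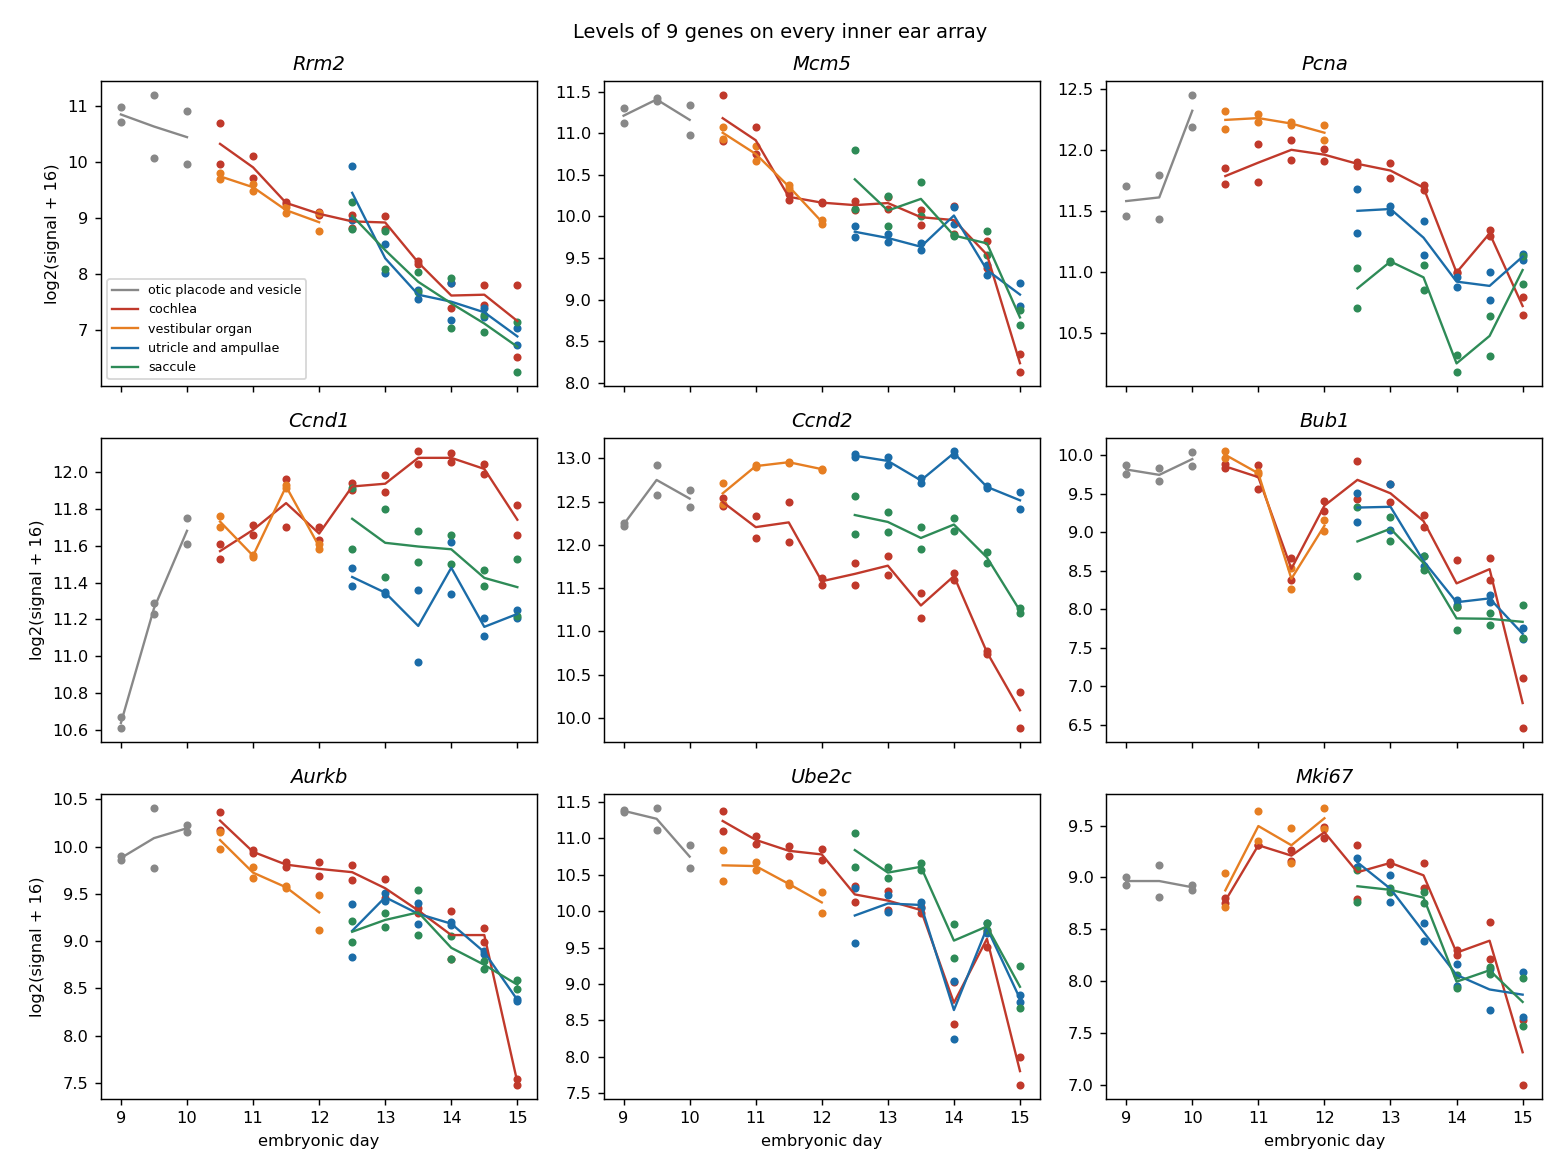
Levels, log2(signal + 16), of 9 genes by embryonic day on all inner ear arrays; points are single arrays and lines join the means of 2 arrays. Rrm2 and Mcm5 are lower by E12 than at E10.5 in the cochlea, while Aurkb and Bub1 drop between E14.5 and E15 there.

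From E12.5 to E15, the span shared by all 3 later organs, 31 of 41 genes fell in the cochlea, 18 in the utricle and 22 in the saccule, and none rose in any of them. Over all genes 2.88%, 2.49% and 2.49% fell, and 3.42%, 5.04% and 4.59% rose. In the cochlea these were 8 replication, 3 G1/S and 20 mitosis genes. In the utricle they were 3, 2 and 13, and in the saccule 6, 2 and 14. By adjusted p alone, 37 of 41 genes were lower in each organ, where 25.1%, 32% and 29.9% of all genes passed either way. The group falling in all 3 organs held 16 genes: 12 mitosis genes (Birc5, Bub1, Bub1b, Ccna2, Ccnb2, Cenpa, Cenpe, Mad2l1, Mki67, Nusap1, Top2a and Ube2c), with Mcm4, Rrm2, Cdc6 and Chek1. How many of all genes fell in all 3 organs was not counted, so this overlap has no background beside it.

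**Figure D3:**
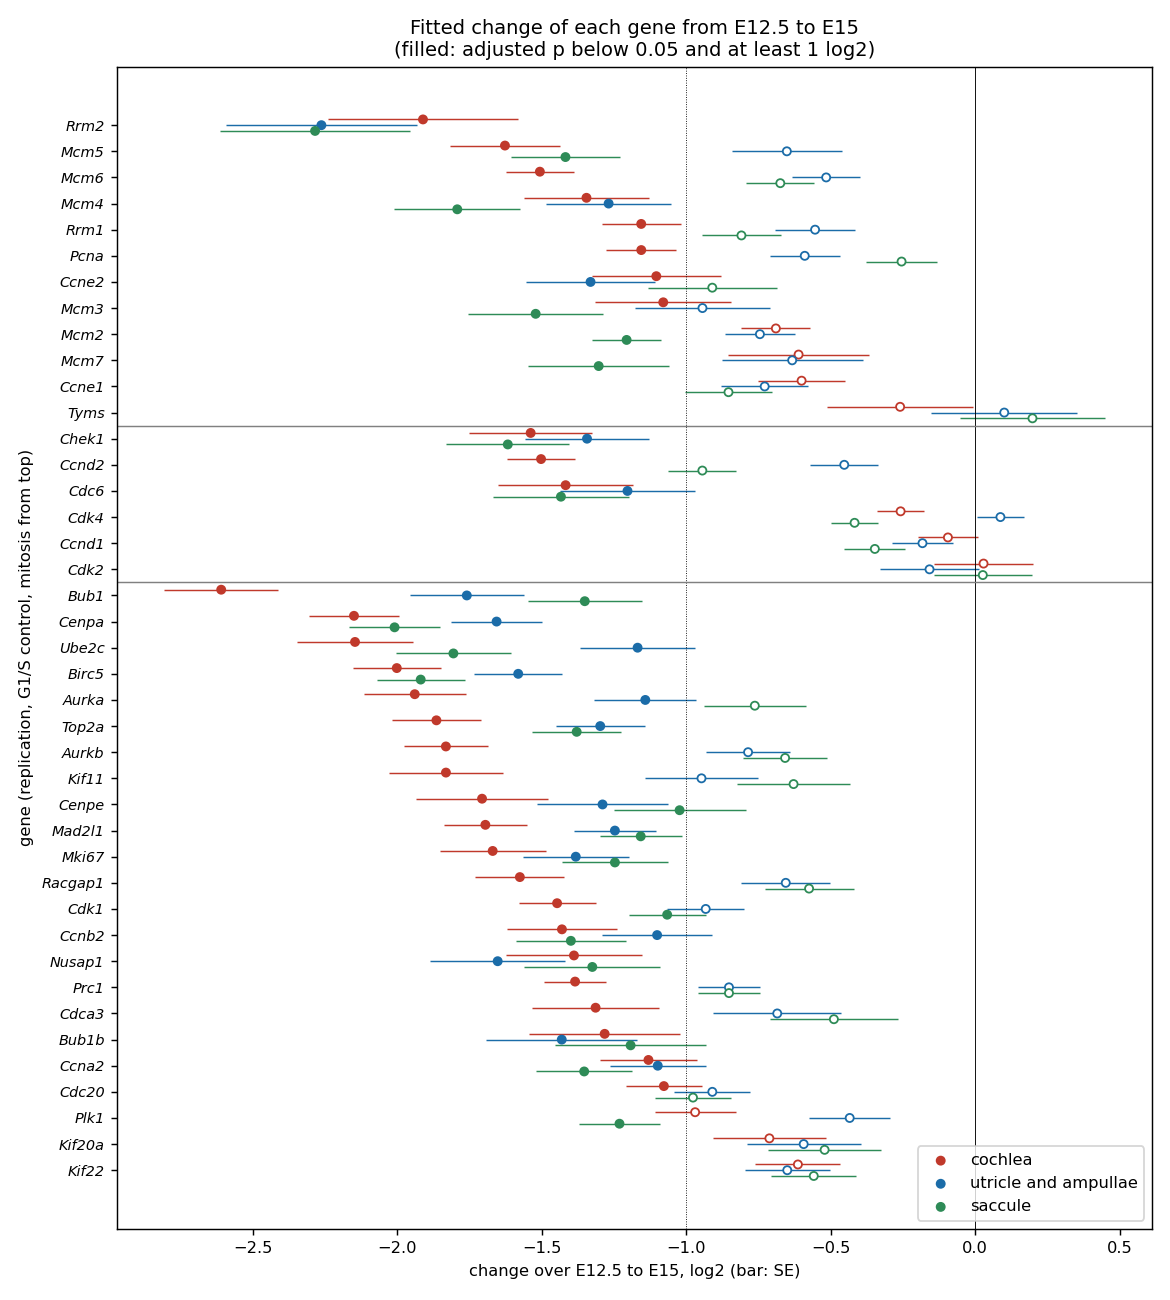
Fitted log2 change of each measured gene from E12.5 to E15 in cochlea, utricle with ampullae and saccule, with its standard error; filled points are called. Bub1 has the largest fall in the cochlea, and Tyms, Cdk2, Cdk4 and Ccnd1 lie between -0.42 and 0.20 in all 3 organs.

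In the cochlea the late fall was deepest in Bub1, at -2.61 ± 0.20 (SE, adjusted p = 1.6e-13). It read 9.93 and 9.43 at E12.5, 9.22 and 9.07 at E13.5, 8.38 and 8.66 at E14.5, and 6.45 and 7.11 at E15. Cenpa and Ube2c each fell by 2.15, and Birc5, the survivin subunit of the chromosomal passenger complex, by 2.00. The median late change was -1.13 over the replication genes, -0.84 over G1/S control and -1.58 over the mitosis genes. Of the mitosis genes, Plk1 (-0.97), Kif20a (-0.71) and Kif22 (-0.61) were not called.

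In the utricle with its ampullae the medians were -0.69 for replication, -0.32 for G1/S control and -1.10 for mitosis. Rrm2 fell by 2.26 ± 0.33 (SE, adjusted p = 1.2e-06), from 9.93 and 8.97 at E12.5 to 6.74 and 7.03 at E15. Bub1 fell by 1.76, Cenpa by 1.66, and Nusap1, which bundles spindle microtubules, by 1.65. Of the 12 replication genes, Rrm2, Ccne2 (-1.33) and Mcm4 (-1.27) were the called ones. Mcm5, at -0.65, and Mcm6, at -0.52, were not called.

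In the saccule the replication and mitosis medians were close, at -1.06 and -1.16. Here 5 helicase subunits were among the called genes, Mcm4 (-1.79), Mcm3 (-1.52), Mcm5 (-1.42), Mcm7 (-1.30) and Mcm2 (-1.21), along with Rrm2 (-2.29). Cenpa fell by 2.01 and Birc5 by 1.92. Pcna read 11.03 and 10.70 at E12.5, 10.18 and 10.32 at E14, and 11.13 and 10.90 at E15, with a fitted change of -0.25 that was not called. Plk1, the kinase that drives mitotic entry, fell in the saccule, by 1.23.

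The last step was large in the cochlea. Comparisons of consecutive stages were added after the values were seen, and their p-values were adjusted within each step only. This step held more member calls than any other. From E14.5 to E15, 15 of 41 genes fell in the cochlea, 13 of them mitosis genes, where 1.10% of all genes fell. Ube2c dropped by 1.82 ± 0.24 (SE, adjusted p = 1.3e-06), Bub1 by 1.73, Kif11 by 1.64, Aurkb by 1.56 and Aurka by 1.54. The 2 replication genes were Mcm5, at -1.31, and Mcm6, at -1.22. In the utricle and in the saccule limma called none over the same step, where 0.128% and 0.192% of all genes fell. Some members passed the adjusted p in limma there but not the size rule. In the utricle these were Ube2c (-0.98) and Cenpa (-0.94). In the saccule they were Cenpa (-0.90), Mcm5 (-0.895), Ube2c (-0.83), Birc5 (-0.65), Ccnd2 (-0.62), Plk1 (-0.55) and Cdk4 (-0.51), with Pcna higher (0.54). At an unadjusted p below 0.05, 33 genes were lower in the cochlea, 8 in the utricle and 15 in the saccule. The share of all genes with such a p was not counted for this step, so these 3 counts have no background beside them. Median changes of the mitosis genes were -1.07, -0.28 and -0.17, beside -0.0048, -0.0003 and -0.0105 over all genes. The difference of this single step between organs was not tested. From E13.5 to E14, 4, 5 and 3 members were called lower in cochlea, utricle and saccule. Over all genes 1.44%, 4.35% and 0.749% fell between those stages.

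**Figure D4:**
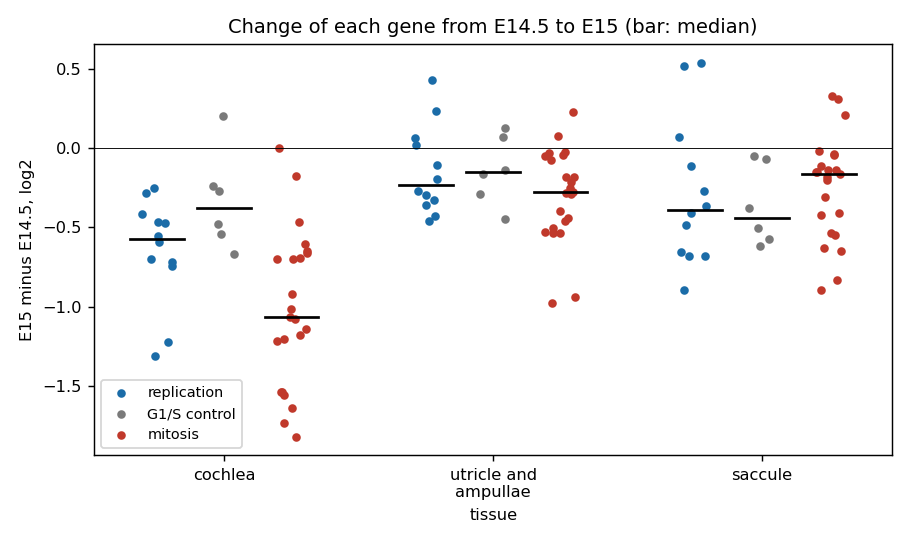
Log2 difference between E15 and E14.5 for each measured gene by organ and role; bars are medians. The mitosis median is -1.07 in the cochlea and -0.28 and -0.17 in the utricle and saccule.

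The whole late slopes were compared between organs by the difference of trends. The cochlea fell more steeply than the utricle in 2 genes, Ccnd2 (-1.05 ± 0.17 SE, adjusted p = 3.4e-05) and Aurkb, the kinase of the chromosomal passenger complex (-1.05 ± 0.21 SE, adjusted p = 0.0008). Over all genes 2.13% did so. With the second-brightest Ccnd2 probe set that difference was 0.19, of the opposite sign and not called. It fell more steeply than the saccule in 5, all of mitosis: Bub1 (-1.26), Kif11 (-1.20), Aurka (-1.18), Aurkb (-1.17) and Racgap1, needed for cytokinesis (-1.001), beside 3.10% of all genes. Aurkb read 8.99 and 9.14 in the cochlea at E14.5 and 7.54 and 7.48 at E15, while the arrays of E15 read 8.37 and 8.39 in the utricle and 8.59 and 8.49 in the saccule. At E15 the arrays of the cochlea did not overlap those of the other organs.

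These differences rested on E15. Without the E15 arrays, an alternative added after seeing the data, no trend difference was called, and the late cochlear count was 10, over a span that ends at E14.5. The counts without E15 were 14 in the utricle and 15 in the saccule. Single arrays also mattered: the 5 against the saccule became 2 without the first array of saccule E15 and 3 without the second array of saccule E12.5. The 2 against the utricle became 1 without the first array of utricle E12.5 and 7 without the second array of cochlea E15. It became 4 or 5 without any 1 of 6 others: utricle E12.5 array 2 and E15 array 1, and cochlea E12.5 array 2, E13 array 1, E14 array 1 and E14.5 array 2. Between saccule and utricle, 6 genes had an unadjusted p below 0.05 for the trend difference in limma, as did 18.0% of all genes. No member was called there by limma, where 2.11% of all genes were called either way. Without the first array of saccule E12.5 the count was 1.

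The level of Ccnd2 separated the organs at every stage. Averaged over E12.5 to E15 the cochlea minus utricle difference was -1.63 ± 0.06 (SE, adjusted p = 9.1e-25), or 3.10-fold lower, the 1 gene of 41 called (1.87% of all genes were lower). The utricle read 13.05 and 13.01 at E12.5 and 12.42 and 12.61 at E15. The saccule lay between them, with 12.56 and 12.13 at E12.5 and 11.27 and 11.21 at E15. At each of the 6 stages both cochlear arrays were below both arrays of either organ. Its second-brightest probe set gave -0.10 for the late cochlear fall and -0.78 for the difference in level, neither called. Over the whole cochlear course that set gave -0.50, beside -1.94 for the brightest. The other kept sets, dimmer at means of 6.30 to 7.06, gave -2.61, -1.77, -1.24 and -0.56.

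Average levels of the other members were not called different, which does not show them equal. Cochlea against saccule gave 0 calls by limma, with 22 genes at an unadjusted p below 0.05, and saccule against utricle 0, with 19. Called either way over all genes were 3.77% and 2.72%, and 57.8% and 49.6% of all genes had an unadjusted p below 0.05 in limma. Without the second array of saccule E14, cochlea against saccule gave 1 call. At E10.5 to E12, cochlea against vestibular organ also gave 0 calls (1.41% of all genes), with 13 genes at an unadjusted p below 0.05. Of all genes, 34.5% had such a p in limma there.

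In the vestibular organ, 2 genes fell from E10.5 to E12 and none rose (1.79% of all genes fell): Bub1 by 1.24 and Mcm5 by 1.07. Mcm5 read 10.93 and 11.08 at E10.5 and 9.96 and 9.91 at E12. Bub1 read 8.26 and 8.53 at E11.5 and 9.01 and 9.16 at E12, and in the cochlea it was likewise lower at E11.5, at 8.38 and 8.67, than at E12. The median replication gene was at -0.24 at E12 against E10.5 and the median mitosis gene at 0.06. As in the cochlea, stage and the longer digestion from E11 on cannot be told apart for differences from E10.5.

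From the placode at E9 to the vesicle at E10, 2 of 41 genes rose (3.73% of all genes) and none fell (1.56% of all genes). Rrm1 rose by 1.27 ± 0.16 (SE, adjusted p = 3.0e-07), from 9.70 and 9.87 to 11.12 and 10.99. Ccnd1, the cyclin that links growth signals to the cycle, rose by 1.04, from 10.61 and 10.67 to 11.61 and 11.75, with E9.5 between at 11.29 and 11.23. A second Rrm1 probe set gave 0.02. Without the first array of vesicle E10 the count was 5, and without the second Ccnd1 was at 0.97.

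**Figure D5:**
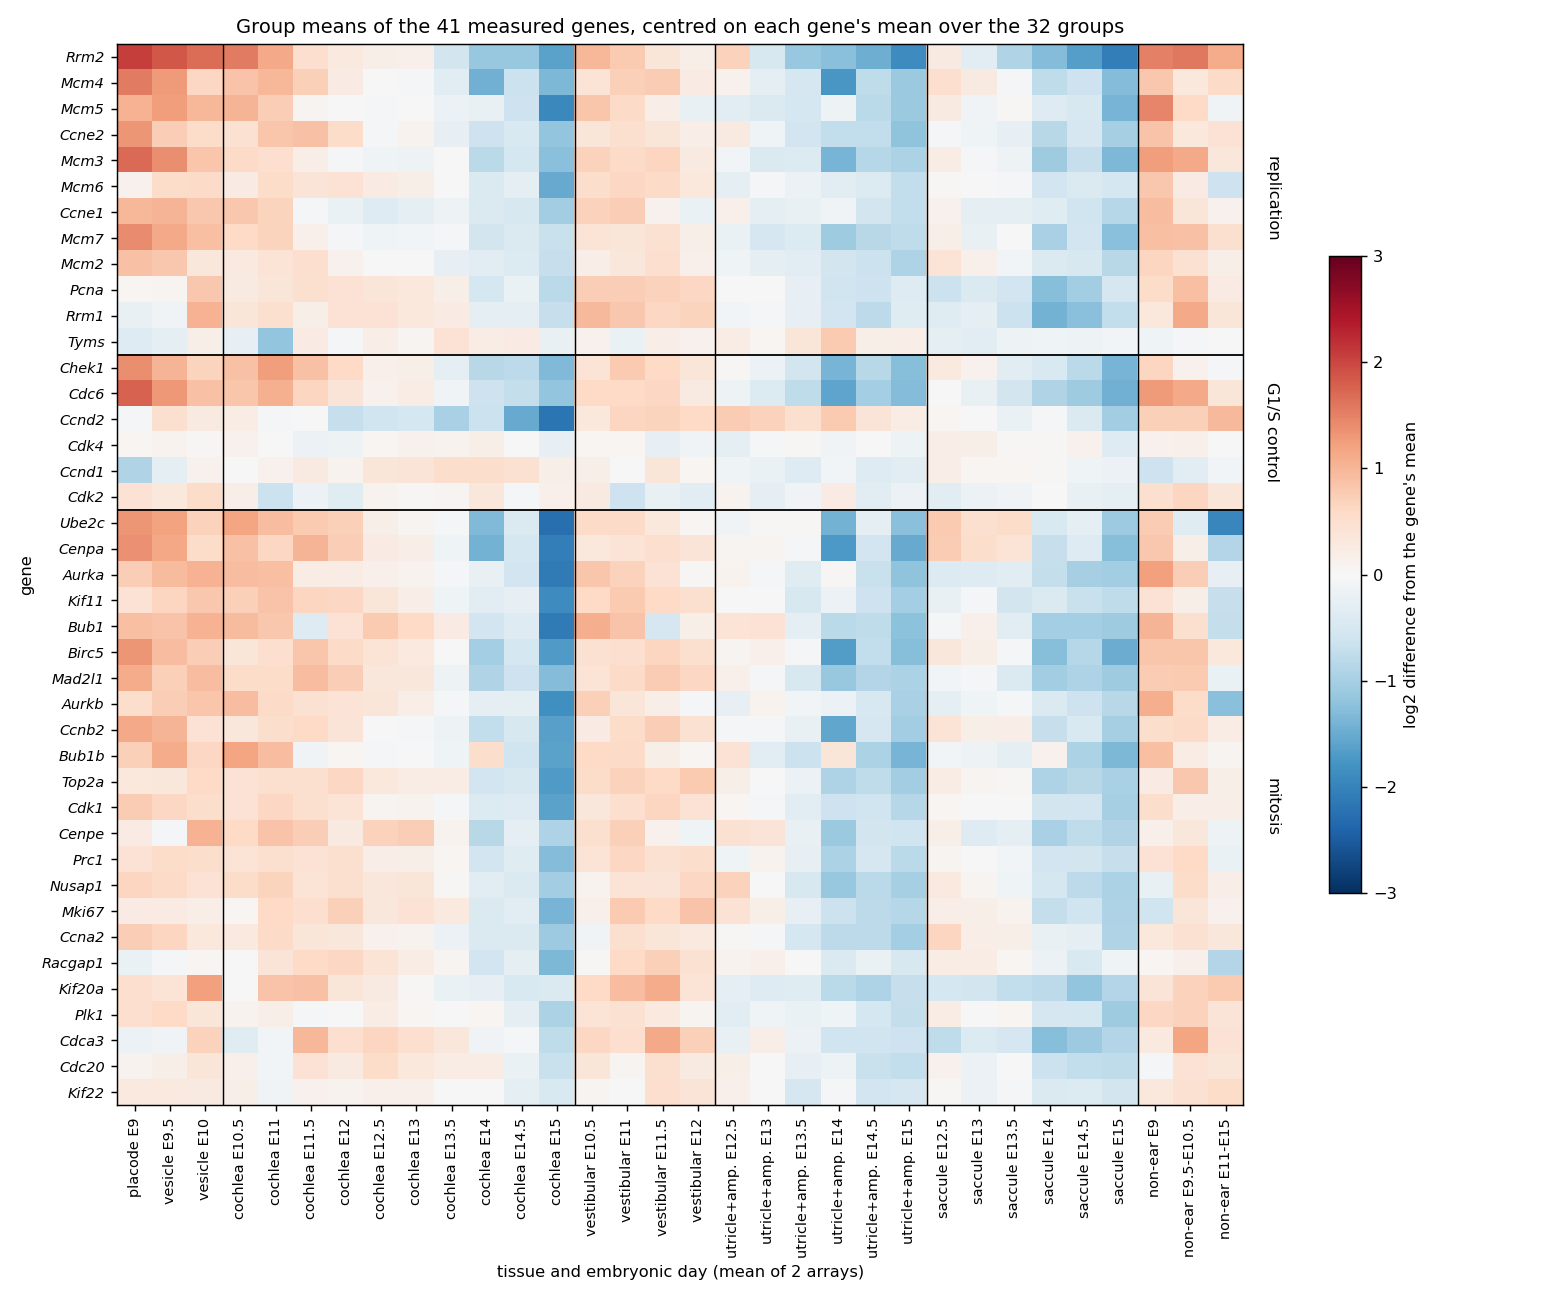
Mean of 2 arrays for each of 41 genes (rows, by role and then by cochlear change from E10.5 to E15) in the 32 groups (columns), as log2 difference from the mean of that gene over groups. Most rows are red at E9 to E11 and blue at E15, where many mitosis genes are a deeper blue in the cochlea than in the utricle or saccule; Cdk4 is pale throughout.

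Inner ear and surrounding tissue were compared at 3 ages. At E9, placode and surrounding tissue gave 0 calls by limma (5.93% of all genes either way), with 17 genes at an unadjusted p below 0.05 and 1 call without the second array of surrounding tissue. At E9.5 to E10.5, Ube2c was higher in the inner ear by 1.29 (3.72% of all genes were higher), and 2 genes were called without the first array of vesicle E9.5 or of cochlea E10.5. At E11 to E15, Ube2c was higher by 1.90 ± 0.17 (SE, adjusted p = 3.6e-12) and Aurkb by 1.14, where 8.47% of genes were higher. The differences of Rrm2 (-1.51) and Ccnd2 (-1.10) were the calls in the other direction, where 7.14% were lower. At an unadjusted p below 0.05, 12 members were higher and 6 lower at E9.5 to E10.5, and 7 were higher and 21 lower at E11 to E15. Over all genes, 33.9% had such a p in limma at E9, 43.1% at E9.5 to E10.5 and 60.2% at E11 to E15. Ube2c read 8.39 and 7.78 in the surrounding tissue, and Rrm2 read 10.51 and 9.24. Without the first of these arrays Rrm2 was at -0.87, and without the second the 4 calls became 8.

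Surrounding tissue itself changed with age. In the pool of E11 to E15 against E9, 8 of 41 genes were lower (9.51% of all genes), 6 of them mitosis genes. The difference was -2.72 ± 0.24 (SE, adjusted p = 3.5e-12) for Ube2c and -2.36 for Aurkb, followed by Bub1 (-1.73), Cenpa (-1.69), Mcm5 (-1.58), Aurka (-1.49), Mcm6 (-1.44) and Kif11 (-1.12). The median over mitosis genes was -0.32, against -1.70 over the cochlear course, though the latter is a trend between single stages and the former a pool. The 2 sets of values are given side by side only. In the same comparison 8 of 8 neuronal, 5 of 5 cartilage and 5 of 7 periotic mesenchyme genes were higher, where 10.2% of all genes were. The part of these marker genes in the result was not tested.

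Other genes of the same pathways, outside the 43, were counted by the same rule. Of 42 measured further replication genes, 30 fell in the cochlea from E10.5 to E15 and 1 rose. Cdc45 (-2.06) and Gins4 (-2.03), partners of the Mcm helicase, showed the largest falls, and Orc3, of the origin recognition complex, rose by 1.27. Of 43 further mitosis genes 32 fell, Cdc25c (-3.18) and Cenpf (-2.85) the most, and none rose. From E12.5 to E15, 20 and 32 of them fell in the cochlea, 11 and 20 in the utricle, and 12 and 14 in the saccule. Mad1l1 rose in the utricle, by 1.13.

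Regulators and inhibitors were called in both directions. Of 16 measured E2F and DREAM regulators, Rbl1 (-1.66), Lin9 (-1.28) and E2f1 (-1.04) fell over the whole cochlear course and Rbl2, a pocket protein of resting cells, rose by 1.38. Rbl2 also rose late in the utricle (1.02) and saccule (1.39), and Mycn fell there, by 1.25 and 1.55. Of 11 inhibitors, Cdkn1b (2.13), Btg1 (1.86) and Cdkn2b (1.07) rose over the whole cochlear course and none fell. The shares of all genes that fell and rose over that course were 6.89% and 8.06%.

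Cdkn1b, which encodes the inhibitor p27, is given by array beside the division genes. In the cochlea it read 6.73 on both arrays at E12.5, 7.64 and 7.88 at E14.5, and 8.21 and 9.04 at E15. It rose by 1.75 ± 0.32 (SE, adjusted p = 5.5e-05). In the utricle it read 8.03 and 6.94 at E12.5, 8.07 and 6.33 at E14, and 6.60 and 6.45 at E15. The replicates thus lay apart at E12.5 and E14, and fits without single arrays were not examined for Cdkn1b. The change in limma was -0.74 in the utricle (adjusted p = 0.073) and 0.29 in the saccule (adjusted p = 0.55). The trend was higher in the cochlea than in the utricle by 2.498 (adjusted p = 0.00025) and than in the saccule by 1.47 (adjusted p = 0.029). Other inhibitors had their own courses. Cdkn2d rose in the saccule, by 1.26, and its trend was lower in the cochlea than in the utricle (-1.40) and saccule (-1.80). Btg1 fell in the utricle (-1.15) and saccule (-1.08), Btg2 rose in the utricle (1.302), Cdkn2b rose in the saccule (1.11) and Gadd45g rose late in the cochlea (1.12). The trends of Btg1 (1.69 and 1.62) and Cdkn1c (1.01 and 1.44) were higher in the cochlea than in the utricle and saccule, those of Cdkn2b higher than in the utricle (1.15) and those of Gadd45g higher than in the saccule (1.64).

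Markers of other cells moved along the same courses, and their part in the results was not tested. Over the whole cochlear course 6.89% of all genes fell and 8.06% rose. Of 4 measured red blood cell genes, 3 fell over that course. Their summed signal went from 4036 to 6842 at E10.5 to 108.4 to 120.1 at E15 in the cochlea, from 2588 to 3455 at E12.5 to 97.8 to 123 at E15 in the utricle, and from 6964 to 8018 to 99.0 to 219 in the saccule. None of Hbb-y, Hba-x and Alas2 was at the floor on any array, and Hbb-bh1 was at the floor on 8 cochlear, 7 utricular and 5 saccular arrays. Hair cell genes rose late in the utricle (5 of 7) and saccule (6 of 7), and in the cochlea 3 rose and 1 fell. Over all genes 5.04%, 4.59% and 3.42% rose from E12.5 to E15 in utricle, saccule and cochlea, and 2.88% fell in the cochlea. Hair cell sums at E15 were 2885 to 3840 in the utricle, 4937 to 5975 in the saccule and 568 to 997 in the cochlea. Of 8 neuronal genes 6 fell over the whole cochlear course, and their sum was 2489 to 2850 at E10.5, 1358 to 1630 at E14.5 and 2326 to 2534 at E15. From E14.5 to E15 the sum of 4 macrophage genes went from 340 to 442 to 609 to 943 in the cochlea, from 476 to 533 to 1096 to 1552 in the utricle and from 499.8 to 606 to 814 to 1121 in the saccule. The sum of 5 cartilage genes went from 6100 to 6584 to 5884 to 9215 in the cochlea, from 7934 to 9412 to 14304 to 15498 in the utricle and from 5617 to 5874 to 5688 to 6868 in the saccule. Of 7 measured otic epithelial markers 5 rose over the whole cochlear course. Their sum was 1944 to 2419 at E10.5, 11608 to 12101 at E14.5 and 11724 to 12944 at E15. In the pool of surrounding tissue from E11 to E15 that sum was 545 to 553. At E15 the sum of 4 hindbrain genes was 363 to 707 in the cochlea, 553 to 1026 in the utricle and 2668 to 2738 in the saccule. For 7 periotic mesenchyme genes it was 1029 to 1498, 1889 to 2020 and 2569 to 2989. For 5 endothelial genes it was 231 to 246, 615 to 619 and 341 to 434.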

How the data were processed

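Signal intensities of 64 Affymetrix arrays were deposited on a linear scale with a floor of 10, and the submitters' processing notes name MAS5 as the tool of the authors. Its scaling target was not found in the labels or headers. These intensities were quantile normalized, and 16 was added before log2. Probe sets at or above the median of the array on at least 2 arrays were kept (15337), and the brightest probe set of each gene with 1 annotated symbol stood for it, the same one in every comparison. One limma model (limma 3.58.1, R 4.3.3) with 32 groups and 32 residual degrees of freedom gave all contrasts, with p-values adjusted over 9352 genes, and it was tested on simulated data. The number of arrays, 2 per group, limits precision.

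Members and lists were chosen with earlier results of these data known. All members are counted by role. Named in each comparison are up to 5 members per role with the largest change, any with a sign against the other called members of its role, and members not called where under 6 were not, with up to 4 genes of each other list. Members named beyond this (Mki67, Pcna in the saccule, levels at E14) were chosen after their values were seen. E2F, CHR and CCAAT motifs were searched as exact letters. As a check of pairing, same-numbered cochlear and utricular pools deviated together at all 6 stages (correlation 0.203 to 0.508). Those numbers were used as a block only in alternative fits. The main model, which gave the p-values above, held no replicate block. Cochlear and saccular pools did so at 5 of 6 (0.163 to 0.571), with -0.499 at E15. The labels do not state shared embryos, but both labelled pool sizes are equal between cochlea and utricle at 5 of 6 stages and between cochlea and saccule at 4. Alternatives were other pseudocounts, filters, scalings, probe sets, replicate blocks, array weights, fits on the compared groups, left-out stages and left-out arrays.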

Additional observations from a re-analysis of the deposited data

Results flagged for a closer look

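The effect of time over E12.5 to E15 differed between organs in 7 tests of the difference of trends. Against the utricle with its ampullae, the cochlea declined more in Ccnd2 (-1.05 log2) and Aurkb (-1.05). Against the saccule it declined more in Bub1 (-1.26), Aurka (-1.18), Kif11 (-1.20), Aurkb (-1.17) and Racgap1 (-1.0). With the second-brightest Ccnd2 probe set its difference was 0.19, of the opposite sign and not called. Without the E15 arrays none of the 7 was called, with values of -0.52 for Ccnd2 and -0.43 for Aurkb against the utricle, and of -0.13 for Bub1, -0.11 for Aurka, -0.21 for Kif11, -0.32 for Aurkb and -0.18 for Racgap1 against the saccule.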

How the results depend on the processing

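Counts below are members called in either direction unless stated. With the replicate number as a block the counts were 32, 31, 18 and 22 for the cochlea from E10.5, and for cochlea, utricle and saccule from E12.5, and this block changed no member call in the 18 comparisons. A block by stage and number, run on the 7 comparisons between organs, changed none there, and crossing the numbers of the saccule at E15 in it, added after seeing the data, left the trend differences at 2 and 5 members. Array weights, a fit of the compared groups alone, no low-signal filter and a filter of 16 arrays (Kif20a not tested) changed none either.
The cochlea minus utricle trend difference (2) gave 7 with a pseudocount of 1, 1 with 64 and 5 with values as deposited. It gave 1 with the second-brightest probe set, 12 by adjusted p alone (8.09% of all genes) and 0 without E15. The cochlea minus saccule trend difference (5) gave 3 with 64 and 3 with the second-brightest probe set. By adjusted p alone it gave 10 (11.2% of all genes), and without E15 it gave 0.
With values as deposited, saccule minus utricle gave 1, cochlea minus vestibular organ 1, and inner ear minus non-inner ear 4 at E9 and 3 at E9.5 to E10.5. Taken over all genes, the median with values as deposited was 0.24 over the whole cochlear course, 0.11 over its early part, 0.12 in the vestibular organ, -0.28 for cochlea minus vestibular organ, and 0.32, 0.33 and 0.13 for inner ear minus non-inner ear. Pcna then changed by -0.87 and Kif20a by -0.88 over the whole cochlear course, short of 1, and in the saccule Cdk1 (-0.86) and Plk1 (-0.99) were not called. Over all genes the calls higher and lower went from 754 and 644 to 987 and 493 over the whole cochlear course, from 378 and 295 to 452 and 224 over its early part, from 209 and 167 to 300 and 124 in the vestibular organ, from 50 and 82 to 24 and 194 for cochlea minus vestibular organ, and from 253 and 302 to 862 and 124, 348 and 438 to 735 and 256, and 792 and 668 to 1056 and 495 for inner ear minus non-inner ear by age.
With the second-brightest probe set the vestibular course gave 4, cochlea minus utricle 0, inner ear minus non-inner ear 2 at E9 and 2 at E11 to E15, and non-inner ear E11 to E15 minus E9 gave 13. Top2a in the vestibular course turned to -1.60, Ccnd2 in the cochlea minus utricle trend to 0.19 and Ccna2 in the non-inner ear comparison to -1.29. The cause was not tested.
By adjusted p alone the counts were 14 for the cochlea from E10.5 to E12, 6 for the vestibular course, 37 for utricle and 37 for saccule, 17 for E10 minus E9, 2 for the saccule minus utricle trend, 13, 20 and 16 for cochlea minus utricle, cochlea minus saccule and saccule minus utricle, 9 for cochlea minus vestibular organ, 12, 15 and 27 for inner ear minus non-inner ear by age, and 21 for non-inner ear.
Without E15 the late cochlear count was 10 and cochlea minus saccule was 1.
Leaving out 1 array at a time gave 32 to 33 for the whole cochlear course, 1 to 6 for its early and 27 to 32 for its late part, 18 to 20 for utricle, 20 to 23 for saccule, 2 to 3 for the vestibular course and 2 to 5 for E10 minus E9. Trend differences ran from 1 to 7 (cochlea minus utricle), 2 to 7 (cochlea minus saccule) and 0 to 1 (saccule minus utricle). Mean differences ran from 1 to 1 (cochlea minus utricle), 0 to 1 (cochlea minus saccule), 0 to 0 (saccule minus utricle and cochlea minus vestibular organ), 0 to 1, 1 to 2 and 3 to 8 (inner ear minus non-inner ear by age) and 7 to 12 (non-inner ear).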

Other observations

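Probe sets of the same gene did not always tell the same story. Of the 41 genes, 20 had several probe sets past the filter. In the cochlea from E10.5 to E15, Rrm2 was alike on all 3 of its sets (-3.02, -3.08 and -2.59), while Ccnd1 gave 0.35, 0.31 and -0.24 and Kif22 gave -0.43, -1.62 and -1.69.

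At E14, transcripts of a few members departed from both neighbouring stages in more than 1 organ. Ube2c read 9.03 and 8.45 in the cochlea at E14, with 10.06 and 9.97 at E13.5 and 9.51 and 9.73 at E14.5, and in the utricle 8.24 and 9.04 at E14, with 10.12 and 10.05 at E13.5 and 9.70 and 9.84 at E14.5. Cenpa read 8.12 and 7.70 in the cochlea at E14, with 9.20 and 9.21 before it and 8.71 and 8.87 after it. Bub1b went the other way in the cochlea, at 11.25 and 10.69 at E14, with 10.42 and 10.24 before it and 9.66 and 10.06 after it.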
